A study of Mus musculus with 14 samples.

Results

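The collagen genes of the mouse heart were examined in 14 WT hearts. Members were all protein-coding genes whose symbol reads Col, a number, a and a number, which gave 44 genes of the 56748 genes in the files. By the type number, 11 members were fibrillar collagens (types I, II, III, V, XI, XXIV and XXVII), 6 were basement membrane collagens (type IV), and 27 belonged to the other types. The mice were WT C57BL6J, and the study used them as controls for transgenic mice in which doxycycline switches on a short hairpin RNA against frataxin. The knockdown, NR and NMN hearts of the series were not used here. By the paper's methods, doxycycline chow was started at 12 to 16 weeks of age, and the labels list no other treatment for these mice. WT_B held 5 hearts (mice 4, 5, 7, 8 and 9), WT_F held 5 hearts (mice 28 to 32) and WT_A held 4 hearts (mice 22, 23, 24 and 26), with 1 library per mouse.

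The labels give neither sex nor cohort in words. By mouse numbers in the study's supporting data, WT_F were pilot females with 26 weeks of doxycycline and WT_A were pilot males with 20 weeks. WT_B were taken, by elimination, as the males of a second cohort with 16 weeks. The labels give 16 to 20 weeks for all mice. Xist and Ddx3y matched that sex in all 14 libraries. Sex and weeks therefore cannot be told apart between WT_F and WT_A, nor cohort and weeks between WT_B and WT_A, and all 3 differ between WT_B and WT_F.

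Collagens are secreted proteins built from 3 chains wound into a triple helix. Fibrillar collagens assemble into the load-bearing fibres of the interstitium, which in the heart are made mainly by fibroblasts. Type IV chains form the sheet-like network of the basement membranes that surround cardiac muscle cells and capillaries. The other types decorate fibrils, form beaded filaments or short networks, or span the cell membrane.

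Expression was given in FPKM, fragment counts divided by gene length in kilobases and by library depth. The length that turned low values into whole fragments was that of all annotated exons of a gene merged. It can exceed the length of the main transcript, so levels and shares across genes depend in part on the annotation. The libraries held 16810000 to 31970000 fragments, read from the steps between low FPKM values. Transcripts of the mitochondrial genome took 33.8% to 52.0% of summed FPKM in WT_B. In WT_F they took 49.99% in mouse 28 and 2.42% to 17.2% in the other 4 mice, and in WT_A 51.0% in mouse 22 and 1.93% to 6.63% in the other 3. This share and the group can largely not be told apart for WT_B. Mouse 24 of WT_A stood apart as well. Its library held 4235 FPKM of Myl7, an atrial light chain gene, and 82.1 FPKM of Myl2, the ventricular form, against at most 2.003 FPKM of Myl7 in every other library. Its summed endocardial markers (Npr3, Plvap and Cytl1) reached 205 FPKM, against 5.79 to 12.1 FPKM in the other 13 libraries. The tests that rest on WT_A were rerun without this mouse, and its values are named where they stand apart.

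Promoter windows are shown for 4 members whose levels are described below. Each window runs from 250 bases before to 50 bases after the RefSeq start on GRCm38.p6, 5′ to 3′ along the gene. Of the 44 members, 35 had such a window. Col4a1 and Col4a2, which encode the chains of the common type IV network, start head to head on chromosome 8. The Col4a2 window lies at chr8:11312555-11312854 on the plus strand and the Col4a1 window at chr8:11312777-11313076 on the minus strand. Capitals mark the 78 bases that both windows hold, as reverse complements of each other, and the annotated 5′ ends of both genes overlap by 22 bases.
Col4a2: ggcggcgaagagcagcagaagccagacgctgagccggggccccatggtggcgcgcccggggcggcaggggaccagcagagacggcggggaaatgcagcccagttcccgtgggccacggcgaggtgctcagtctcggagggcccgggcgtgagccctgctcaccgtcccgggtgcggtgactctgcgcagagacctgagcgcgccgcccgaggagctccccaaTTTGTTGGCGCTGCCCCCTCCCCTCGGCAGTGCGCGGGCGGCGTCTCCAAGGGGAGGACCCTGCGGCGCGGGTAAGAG
Col4a1: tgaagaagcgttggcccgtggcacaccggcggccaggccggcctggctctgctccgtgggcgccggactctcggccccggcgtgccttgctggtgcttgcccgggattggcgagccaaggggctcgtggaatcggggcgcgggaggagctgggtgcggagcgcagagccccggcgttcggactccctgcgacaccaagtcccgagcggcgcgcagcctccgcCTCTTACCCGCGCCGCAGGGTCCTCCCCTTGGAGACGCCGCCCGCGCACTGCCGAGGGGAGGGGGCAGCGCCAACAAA

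Col3a1 encodes the type III chain and Col5a3 a chain of type V, a minor fibrillar collagen that nucleates fibrils. Their windows lie at chr1:45311288-45311587 on the plus strand and chr9:20815018-20815317 on the minus strand. Capitals mark exact matches on either strand to CCAAT, to GGGCGG (a GC box) and to TATAAA, none of which overlapped another.
Col3a1: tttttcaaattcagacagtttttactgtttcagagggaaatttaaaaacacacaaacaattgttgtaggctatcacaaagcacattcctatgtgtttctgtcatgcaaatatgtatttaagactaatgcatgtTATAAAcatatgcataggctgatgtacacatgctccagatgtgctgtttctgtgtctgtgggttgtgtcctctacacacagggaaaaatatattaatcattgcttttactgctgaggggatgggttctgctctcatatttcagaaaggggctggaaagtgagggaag
Col5a3: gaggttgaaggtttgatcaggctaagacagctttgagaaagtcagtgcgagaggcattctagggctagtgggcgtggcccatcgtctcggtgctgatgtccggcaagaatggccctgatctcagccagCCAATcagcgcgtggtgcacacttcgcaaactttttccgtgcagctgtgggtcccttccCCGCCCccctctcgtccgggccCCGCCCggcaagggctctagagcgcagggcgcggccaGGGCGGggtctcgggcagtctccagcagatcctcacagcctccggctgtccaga

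In these letters the Col3a1 window held 1 TATAAA and neither of the other words, and the Col5a3 window held 1 CCAAT and 3 GGGCGG. The Col4a2 window held 1 CCAAT and 3 GGGCGG, and the Col4a1 window held 1 of each and no TATAAA. Over the 38 windows of members, 60.5% held GGGCGG, 34.2% held CCAAT and 13.2% held TATAAA. Over all 32851 promoter windows of the table the shares were 35.7%, 37.4% and 13.6% in the same order. A match describes the letters and is no measured binding site.

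Of the 44 collagen genes, 17 had a mean of at least 1 FPKM over the 14 hearts, 12 had a mean between 0.1 and 1 FPKM, and 15 lay under 0.1 FPKM. The 17 comprised 6 of 11 fibrillar members, 3 of 6 type IV members and 8 of 27 others. Type IV led by a wide margin. Col4a1 averaged 59.1 FPKM over all hearts and Col4a2 52.7 FPKM, and apart from each other neither overlapped any collagen gene in range. Below them, Col6a1 (16.0 FPKM), Col3a1 (15.4 FPKM), Col1a1 (13.8 FPKM) and Col15a1 (13.7 FPKM) formed a group of neighbours in the order of levels whose ranges overlapped. Col6a1 exceeded Col3a1 in 8 of 14 libraries, and Col3a1 exceeded Col1a1 in 9. This order is that of FPKM, and fragments summed over all libraries were 22747 for Col6a1 and 49119 for Col3a1. Col6a2 followed at 9.58 FPKM and Col1a2 at 8.03 FPKM, and the range of Col1a2 lay wholly above that of Col4a5, the next gene, at 5.22 FPKM. From Col4a5 down to Col16a1 at 1.03 FPKM, each gene overlapped its neighbour in the order.

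**Figure D1:**
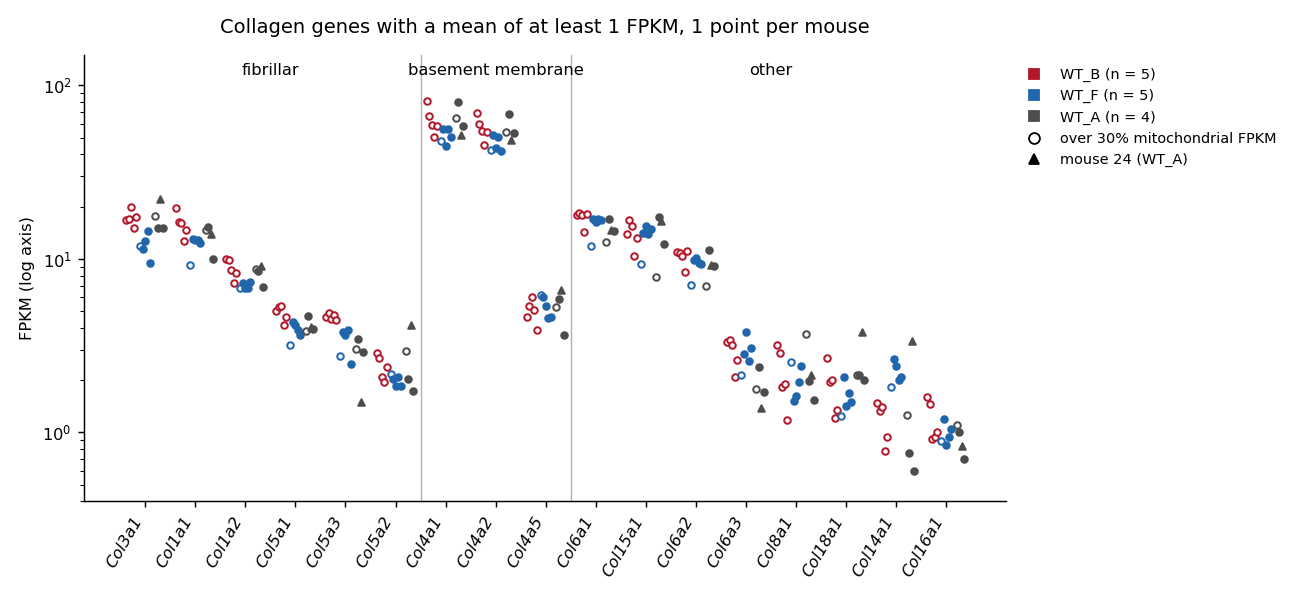
FPKM of the 17 collagen genes with a mean of at least 1 FPKM, on a log axis, with 1 point per mouse, grouped by class and ordered by mean within a class. Open points are libraries with over 30% mitochondrial FPKM and the triangle is mouse 24. Col4a1 and Col4a2, at means of 59.1 and 52.7 FPKM, lie above every other collagen gene.

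The type IV genes took the largest share of collagen expression in every heart. Their share of the summed FPKM of all 44 members was 51.8% to 57.1% in WT_B, 49.6% to 56.4% in WT_F and 49.0% to 59.5% in WT_A, so the groups overlapped. The lowest value, 49.0%, was that of mouse 24, and the other 3 WT_A hearts lay between 57.6% and 59.5%. The fibrillar share was 21.9% to 24.4% in WT_B, 20.0% to 22.2% in WT_F and 19.05% to 24.6% in WT_A. The other types took 21.1% to 24.1% in WT_B, 22.4% to 28.2% in WT_F and 18.2% to 26.4% in WT_A. These ranges overlapped between every pair of groups. The summed level differed more between hearts than the shares did, with 192 to 274 FPKM in WT_B, 173 to 212 FPKM in WT_F and 200.4 to 260.3 FPKM in WT_A. In fragments, collagen transcripts made up 0.128% to 0.202% of a library.

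**Figure D2:**
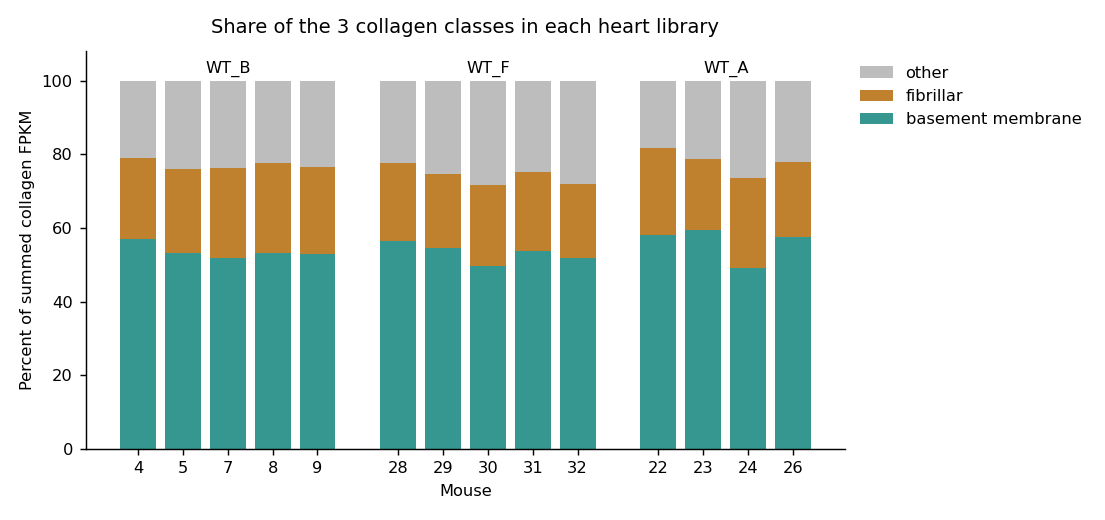
Percent of the summed FPKM of the 44 collagen genes taken by type IV (basement membrane), fibrillar and other members, stacked, in 1 bar per mouse. The type IV share lies between 49.0% and 59.5% in all 14 hearts.

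Among the type IV chains, Col4a1 read 81.04, 66.2, 59.4, 50.4 and 58.5 FPKM in WT_B (mice 4, 5, 7, 8 and 9), 47.8, 56.4, 45.01, 56.4 and 50.7 FPKM in WT_F (mice 28 to 32) and 64.7, 80.1, 52.04 and 58.4 FPKM in WT_A (mice 22, 23, 24 and 26). Col4a2 read 69.4, 60.2, 54.5, 45.6 and 53.98 FPKM in WT_B, 42.4, 51.97, 43.5, 50.4 and 41.99 FPKM in WT_F and 53.8, 68.1, 48.7 and 52.8 FPKM in WT_A. Both genes were highest in mouse 4 of WT_B and mouse 23 of WT_A, and all 3 groups overlapped. The ratio of Col4a1 to Col4a2 stayed between 1.04 and 1.21 in all 14 hearts while each gene varied 1.80-fold and 1.65-fold between its lowest and highest heart. Its coefficient of variation was 4.55%, against 18.4% for Col4a1 and 16.3% for Col4a2.

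The other type IV genes, of which Col4a3, Col4a4 and Col4a5 encode the specialised network of kidney, lung and eye, were lower. Col4a5, on chromosome X, read 4.63, 5.37, 6.03, 5.100 and 3.86 FPKM in WT_B, 6.203, 5.99, 5.32, 4.57 and 4.61 FPKM in WT_F and 5.27, 5.85, 6.65 and 3.62 FPKM in WT_A, with overlap between all 3 groups. Col4a6, its head-to-head partner on the X chromosome, ranged from 0.101 to 0.799 FPKM. The starts of these genes lie 1342 bases apart in RefSeq. Their ratio ranged from 8.32 to 49.7 with a coefficient of variation of 38.1%. The lowest ratio was that of mouse 24, and it was 19.4 or more in the other 13 hearts. Col4a4, also head to head with Col4a3 on chromosome 1, ranged from 0.380 to 1.34 FPKM and Col4a3 from 0.101 to 0.409 FPKM, and Col4a4 exceeded Col4a3 2.01 to 4.27 times in every heart.

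The fibrillar genes at 1 FPKM or more were those of types I, III and V. Col1a1 read 19.7, 16.3, 15.99, 12.6 and 14.6 FPKM in WT_B, 9.28, 12.97, 12.9, 12.8 and 12.3 FPKM in WT_F and 14.7, 15.2, 13.96 and 10.03 FPKM in WT_A. Col1a2, the partner chain of type I, read 9.96, 9.88, 8.66, 7.30 and 8.34 FPKM in WT_B, 6.77, 7.22, 6.84, 6.79 and 7.34 FPKM in WT_F and 8.80, 8.56, 9.12 and 6.84 FPKM in WT_A. For both genes, WT_B and WT_A each overlapped WT_F. The ratio of Col1a1 to Col1a2 was 1.37 to 1.97, and its lowest value was that of mouse 28. In fragments summed over all libraries the order was the other way, with 29589 for Col1a1 and 32540 for Col1a2. Col5a1, which encodes a type V chain, read 4.98, 5.26, 5.38, 4.16 and 4.64 FPKM in WT_B, 3.17, 4.34, 4.18, 3.87 and 3.62 FPKM in WT_F and 3.84, 4.66, 4.03 and 3.92 FPKM in WT_A. Its partner chain Col5a2 read 2.88, 2.69, 2.08, 1.96 and 2.38 FPKM in WT_B, 2.18, 2.03, 1.84, 2.095 and 1.86 FPKM in WT_F and 2.93, 2.04, 4.14 and 1.72 FPKM in WT_A. The highest Col5a2 value was that of mouse 24, and the groups overlapped for both genes.

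The remaining 5 fibrillar members were close to the floor. Col11a2 ranged from 0.115 to 0.530 FPKM and Col27a1 from 0.144 to 0.373 FPKM, and both were lowest in mouse 24. Col2a1, Col11a1 and Col24a1, which mark cartilage and developing bone, had at most 5 fragments in any library. The 7 valve and cartilage markers summed to 21.3 FPKM in mouse 24, against 1.20 to 3.05 FPKM in the other 13 hearts. Comp, a cartilage matrix gene, made up 18.9 FPKM of that sum, and it was at 0.135 to 1.24 FPKM elsewhere. Sox9, a transcription factor of cartilage and valve cells, was at 0.291 to 1.25 FPKM, and Tnmd was at 0 in every heart. Fmod was at 1.69 FPKM in mouse 24 and at 0.0927 to 1.45 FPKM elsewhere, so that heart did not stand apart.

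**Figure D3:**
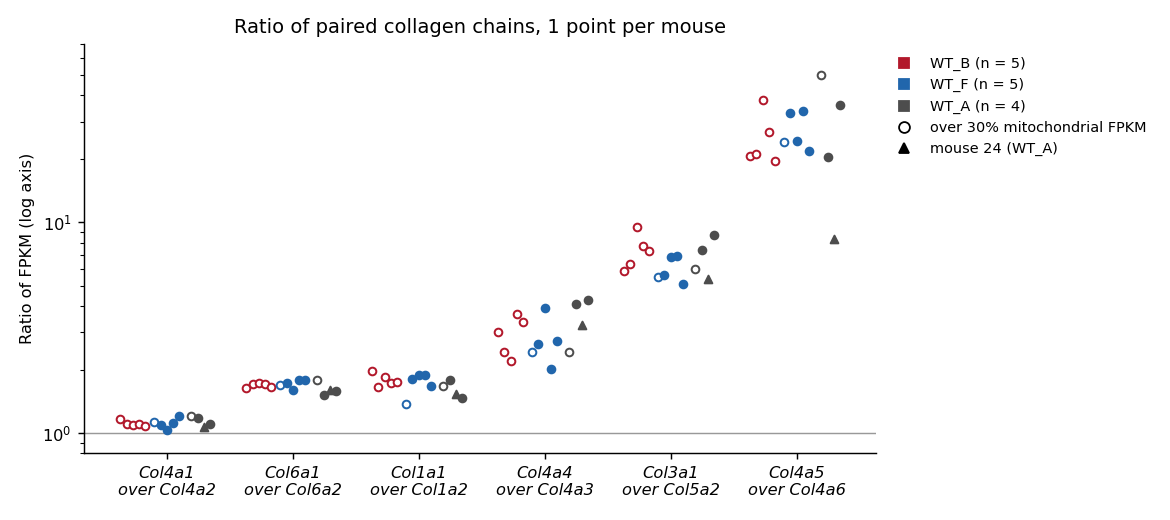
Ratio of the FPKM of 6 pairs of collagen chains, on a log axis, with 1 point per mouse. Open points are libraries with over 30% mitochondrial FPKM and the triangle is mouse 24. The Col4a1 to Col4a2 ratio keeps within 1.04 to 1.21, and the Col4a5 to Col4a6 ratio spreads over 8.32 to 49.7.

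Type VI, whose chains form the beaded filaments around muscle cells, was the leading part of the other types. Col6a1 read 17.98, 18.4, 17.9, 14.2 and 18.2 FPKM in WT_B, 11.9, 17.04, 16.2, 17.1 and 16.6 FPKM in WT_F and 12.5, 16.9, 14.7 and 14.4 FPKM in WT_A. Col6a2, its neighbour on chromosome 10, read 10.96, 10.8, 10.4, 8.36 and 11.1 FPKM in WT_B, 7.05, 9.901, 10.1, 9.52 and 9.37 FPKM in WT_F and 7.01, 11.2, 9.26 and 9.14 FPKM in WT_A. Mice 8, 28 and 22 held the lowest value of their group for both genes. Their ratio was 1.51 to 1.79 in all hearts, with a coefficient of variation of 5.02%. Fragments summed over all libraries had the other order, with 22747 for Col6a1 and 25868 for Col6a2. Col6a3, the long chain of type VI, varied more against them, and the ratio of Col6a1 to Col6a3 was 4.26 to 10.7 (coefficient of variation 24.3%). Of the other type VI genes, Col6a6 ranged from 0.314 to 0.884 FPKM, Col6a5 had at most 6 fragments in a library, and Col6a4 was at 0 in all 14.

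The multiplexins Col15a1 and Col18a1 encode proteins that anchor basement membranes, and the C-terminal part of the Col18a1 product is endostatin. Col15a1 read 13.8, 16.7, 15.5, 10.4 and 13.2 FPKM in WT_B, 9.33, 14.2, 15.4, 13.8 and 14.9 FPKM in WT_F and 7.82, 17.3, 16.5 and 12.2 FPKM in WT_A, and was lowest in mice 22 and 28. Col18a1 read 2.69, 1.95, 2.01, 1.21 and 1.35 FPKM in WT_B, 1.24, 2.09, 1.41, 1.67 and 1.49 FPKM in WT_F and 2.13, 2.14, 3.79 and 2.005 FPKM in WT_A. The value of 3.79 FPKM was that of mouse 24. Col8a1, a short-chain network collagen of vessel walls, read 3.21, 2.87, 1.83, 1.898 and 1.17 FPKM in WT_B, 2.54, 1.51, 1.61, 1.94 and 2.41 FPKM in WT_F and 3.702, 1.97, 2.14 and 1.54 FPKM in WT_A. Col16a1, a fibril-associated collagen, read 1.602, 1.45, 0.913, 0.935 and 1.01 FPKM in WT_B, 0.886, 1.19, 0.8500, 0.937 and 1.05 FPKM in WT_F and 1.11, 1.004, 0.838 and 0.705 FPKM in WT_A. Neither gene separated any pair of groups.

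Of the 44 members, 25 did not reach 0.5 FPKM in at least 4 libraries of any comparison and were not tested. Col9a1 and Col6a4 were at 0 in all 14 hearts, and 13 members in all, these included, were at 0 in at least 1. Col23a1, a transmembrane collagen, was at 0.279 to 0.613 FPKM in 13 hearts and at 4.88 FPKM in mouse 24. Col4a6 (0.799 FPKM), Col4a4 (1.34 FPKM) and Col28a1 (0.552 FPKM) were also at their highest in that heart. How far its atrial and endocardial transcripts account for these levels was not tested.

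The tests compared each pair of groups with limma on log2(FPKM + 1), over the 12483 to 12894 genes that reached 0.5 FPKM in 4 or more of the libraries compared, with Benjamini-Hochberg adjusted p. Fold changes on this scale understate the change of low genes. The 3 comparisons share libraries and are not independent of each other. In whole heart tissue, fewer cells of a type and less RNA per cell cannot be told apart.

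Between WT_B and WT_F, 2 of the 19 tested collagen genes were called, Col3a1 higher in WT_B and Col14a1 lower. Over all 12894 genes, 1.61% were called (0.667% higher and 0.946% lower), and scaling to nuclear genes gave 128 higher and 60 lower in place of 86 and 122. The count moved with single hearts, from 17 genes without mouse 32 to 2645 genes without mouse 28. Col3a1, the type III collagen gene, read 16.9, 17.1, 19.8, 15.1 and 17.5 FPKM in WT_B and 11.9, 11.4, 12.6, 14.4 and 9.51 FPKM in WT_F. Every WT_B heart lay above every WT_F heart. The log2 fold change was 0.50 (SE 0.10, limma adjusted p = 0.0429).

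Col14a1 encodes a fibril-associated collagen that regulates the width of fibrils. It read 1.47, 1.32, 1.40, 0.779 and 0.945 FPKM in WT_B and 1.84, 2.65, 2.40, 2.004 and 2.09 FPKM in WT_F. Every WT_B heart lay below every WT_F heart, and the log2 fold change was -0.55 (SE 0.11, limma adjusted p = 0.0371).

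Both adjusted p lay near the threshold. Leaving out 1 mouse at a time ended both calls for 9 of the 10 mice, with adjusted p of 0.0536 to 0.111 for Col3a1 and 0.0505 to 0.0985 for Col14a1, while over the 10 fits the log2 fold change kept within 0.42 to 0.56 for Col3a1 and -0.60 to -0.48 for Col14a1. Without mouse 28 both remained (adjusted p = 0.0126 for Col3a1 and 0.00575 for Col14a1). When the mitochondrial percent, on a log2 scale, entered the fit as a covariate, the log2 fold changes were 0.39 (SE 0.14) for Col3a1 and -0.51 (SE 0.16) for Col14a1, with adjusted p of 0.499 and 0.418. In mouse 28, the WT_F heart whose mitochondrial share resembled that of WT_B, Col3a1 was at 11.9 FPKM and Col14a1 at 1.84 FPKM. Both lay outside the WT_B range, and this Col14a1 value was the lowest of WT_F. A single heart cannot tell the share and the group apart.

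The fibrillar genes shared a direction in this comparison. All 6 tested fibrillar members had positive log2 fold changes, from 0.17 for Col5a2 to 0.50 for Col3a1, with a median of 0.33, whereas the median of all genes tested was -0.03. The 6 were also positive under every scaling run and with each 1 heart left out. Of all genes, 44.0% had a positive value. Col1a1 had a log2 fold change of 0.36 (SE 0.12, limma adjusted p = 0.106), Col1a2 of 0.29 (SE 0.08, adjusted p = 0.0776), Col5a1 of 0.28 (SE 0.09, adjusted p = 0.0913) and Col5a3 of 0.40 (SE 0.10, adjusted p = 0.0623). None of these 4 was called. At an unadjusted p under 0.05, 5 of the 6 were higher in WT_B. Col4a4 and Col6a6 reached the filter in this comparison only through WT_B, the group in which they were higher, and are left out of the counts that follow. Of the 17 members that remain, 7 were higher (5 fibrillar and 2 of 3 type IV) and 1 lower at that level, against 25.8% of all genes in either direction. The type IV log2 fold changes were 0.28 for Col4a1, 0.29 for Col4a2 and -0.08 for Col4a5. The median of the other types was 0.09 over 8 genes, 7 of them positive, and 0.12 with Col6a6. The summed FPKM of the fibrillar members was 46.8 to 59.9 in WT_B and 36.6 to 44.7 in WT_F, with no overlap.

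Of these 17 members, groups did not overlap for 2 higher in WT_B (Col3a1 and Col5a3) and 1 lower (Col14a1), against 1.62% and 3.61% of all genes tested. Col5a3 was the most even of the tested members within WT_B, at 4.65, 4.87, 4.49, 4.75 and 4.42 FPKM. It read 2.77, 3.79, 3.66, 3.89 and 2.46 FPKM in WT_F and 3.04, 3.47, 1.504 and 2.92 FPKM in WT_A, so WT_B lay above both other groups. Within the libraries of high mitochondrial share, mice 28 and 22, at 2.77 and 3.04 FPKM, also lay below all 5 WT_B hearts. With 1 such heart in each of these groups, the share and the group cannot be told apart.

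**Figure D4:**
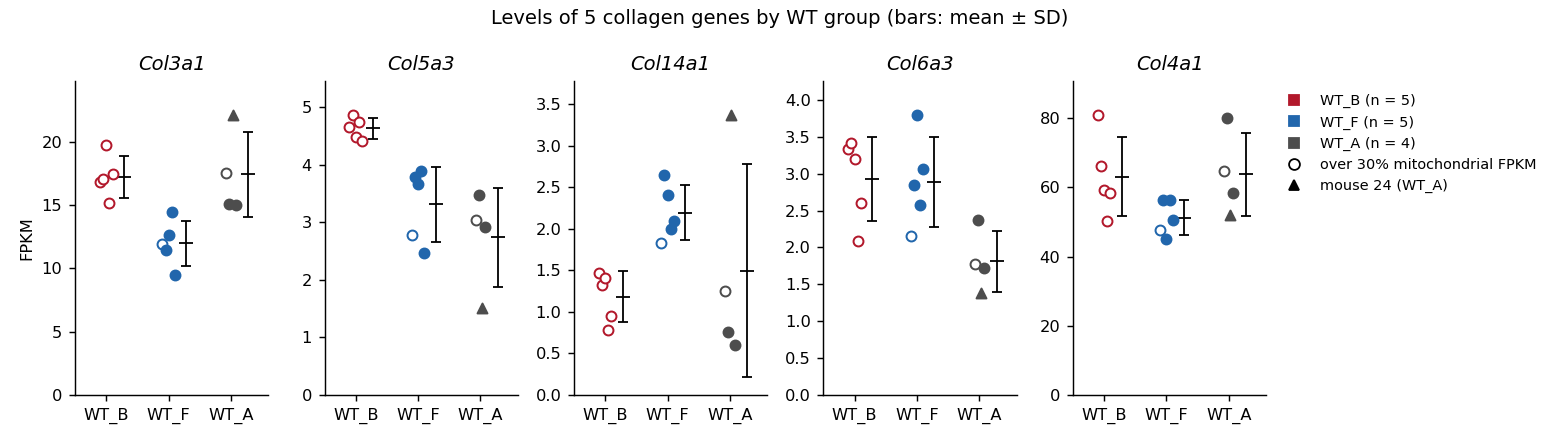
FPKM of Col3a1, Col5a3, Col14a1, Col6a3 and Col4a1 in each mouse of WT_B, WT_F and WT_A, with the mean and SD of each group. Open points are libraries with over 30% mitochondrial FPKM and the triangle is mouse 24. All 5 WT_B points of Col5a3, between 4.42 and 4.87 FPKM, lie above the other groups, and Col4a1 overlaps in all 3.

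Between WT_B and WT_A, no collagen gene of 19 tested was called with limma at an adjusted p under 0.05, and none with voom on recovered fragments. Over all 12745 genes, 0.322% were called, which is 41 genes, against 2392 without mouse 22 and 0 to 26 without any other 1 heart. At an unadjusted p under 0.05, 2 members were higher in WT_B (Col5a3 and Col6a3) and none lower, against 22.5% of all genes in either direction. These are 2 of 17 members, since Col4a4 and Col6a6 reached the filter only through WT_B here too. Without overlap between the groups, Col5a3 was the 1 member, higher in WT_B, where 2.84% of all genes were higher without overlap. Col5a3 had the largest value, a log2 fold change of 0.63 (SE 0.16, limma adjusted p = 0.0968). Without mouse 24, in which Col5a3 was lowest, it was 0.44 (adjusted p = 0.0648). Without mouse 22 Col5a3 was called, at 0.67 (adjusted p = 0.0261). Across 23 alternatives its adjusted p ranged from 0.00443 to 0.949, and 6 of them called it. Among those 6, the fit without mice 22 and 28 repeats the one without mouse 22, since mouse 28 is not in this comparison.

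Col6a3 read 3.33, 3.42, 3.20, 2.09 and 2.601 FPKM in WT_B, 2.15, 2.85, 3.80, 2.58 and 3.06 FPKM in WT_F and 1.77, 2.37, 1.38 and 1.72 FPKM in WT_A. WT_A had the lowest mean and overlapped both other groups only through mouse 23. The log2 fold change of WT_B over WT_A was 0.48 (SE 0.14, limma adjusted p = 0.119), or 0.41 without mouse 24 (adjusted p = 0.139). Over the 17 members the class medians were 0.14 for the fibrillar, -0.02 for the type IV and 0.13 for the other members, and that of all genes was -0.04. Positive values were held by 10 of these 17 members and 44.7% of all genes. Col3a1 did not stand out between these groups, with a log2 fold change of -0.00 (SE 0.13), or 0.11 without mouse 24, and 14.98 to 22.2 FPKM in WT_A. Its highest value, 22.2 FPKM, was that of mouse 24. Of the fibrillar members 4 of 6 were positive. All 6 were positive without mouse 24 (median 0.16), with array weights and with scaling to nuclear genes. That scaling moved the median of all genes to 0.08 and the fibrillar median to 0.28. Only 3 of 6 were positive with the mitochondrial covariate (median 0.02) and without mouse 26 (median 0.04).

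Between WT_F and WT_A, no collagen gene of 18 tested was called with limma or with voom, and of all 12483 genes 0.024% were called. At an unadjusted p under 0.05, Col3a1 and Col18a1 were lower in WT_F and Col6a3 higher, which is 3 of 18 members against 3.85% of all genes. Col3a1 had a log2 fold change of -0.50 (SE 0.15, limma adjusted p = 1.00). Its 5 WT_F hearts, at 9.51 to 14.4 FPKM, lay below all 4 WT_A hearts, at 17.6, 15.1, 22.2 and 14.98 FPKM. The value of 22.2 FPKM, the highest of all hearts, was that of mouse 24. Col3a1 was the only tested member without overlap here, where 0.745% of all genes were lower without overlap. Without mouse 24 the log2 fold change was -0.39, and without mice 22, 24 and 28 it was -0.32 (adjusted p = 0.373). Col6a3 had a log2 fold change of 0.47 (SE 0.14, limma adjusted p = 1.00), or 0.39 without mouse 24.

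Col18a1 and Col14a1 turned on mouse 24 in this comparison. Col18a1 had a log2 fold change of -0.43 (SE 0.16, limma adjusted p = 1.00) with that mouse and -0.27 without it. Col14a1 read 3.38 FPKM in mouse 24 of WT_A, and 1.25, 0.763 and 0.59999 FPKM in mice 22, 23 and 26. Its log2 fold change was 0.47 (SE 0.26) with that mouse and 0.78 without it (limma adjusted p = 0.367), when all WT_F hearts lay above the other 3 WT_A hearts. Of the fibrillar members 5 of 6 had negative values (median -0.18), as had 3 of 4 type IV members (median -0.22), while 6 of 8 others were positive (median 0.05). Without mouse 24 these counts were the same and the medians were -0.11 for the fibrillar, -0.17 for the type IV and 0.07 for the other members. Without mice 22, 24 and 28, 3 of 6 fibrillar members were negative (median -0.0207). In all, 8 of 18 members were positive, against 49.5% of all genes, and the median of all genes was -0.00.

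**Figure D5:**
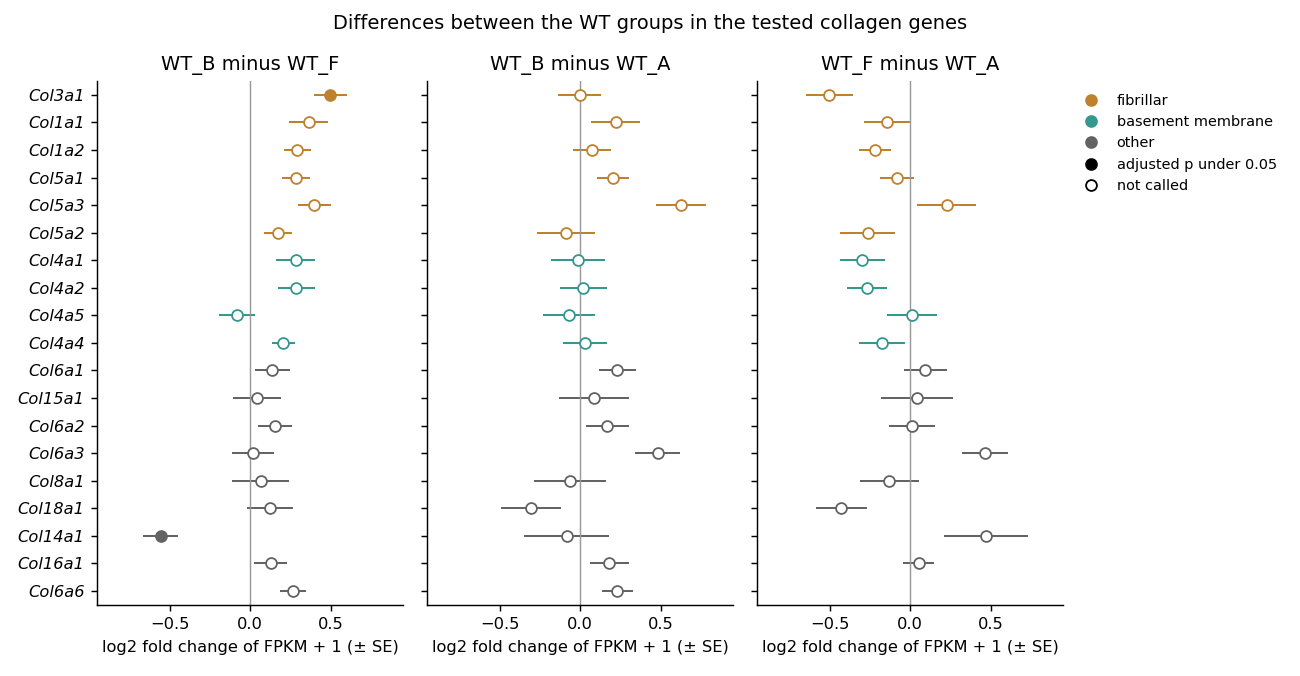
Log2 fold change of FPKM + 1 with its standard error for each tested collagen gene in the 3 comparisons, colored by class, with filled points where the limma adjusted p is under 0.05. Only Col3a1 and Col14a1, in WT_B minus WT_F, are filled, and all 6 fibrillar genes are positive there.

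The genes that make and handle collagen gave no call in any comparison. Of 30 genes of collagen synthesis and processing, 26 were tested in each comparison. At an unadjusted p under 0.05, 1 was higher and 5 lower in WT_B than in WT_F, which is 6 of 26 against 25.8% of all genes. P4hb, a subunit of prolyl hydroxylase, averaged 67.4 ± 1.87 FPKM in WT_B and 83.5 ± 6.77 FPKM in WT_F (SD, n = 5 mice each, here and below; log2 fold change -0.30, limma adjusted p = 0.0575). WT_B ranged from 64.5 to 69.0 FPKM. Mice 28 of WT_F and 22 of WT_A, of high mitochondrial share, read 72.8 and 71.7 FPKM, the lowest of their groups. The other hearts read 81.7 to 90.6 FPKM in WT_F and 92.5 to 121 FPKM in WT_A. Plod2, a lysyl hydroxylase gene, was the 1 higher, at 4.12 ± 0.471 FPKM in WT_B and 2.75 ± 0.996 FPKM in WT_F (log2 fold change 0.48, adjusted p = 0.0943). Mice 28 and 22 read 4.36 and 4.32 FPKM of Plod2, within the WT_B range of 3.70 to 4.85 FPKM. The other hearts read 1.79 to 2.96 FPKM in WT_F and 1.72 to 2.92 FPKM in WT_A. How far the mitochondrial share accounts for the levels of P4hb and Plod2 was not tested. Serpinh1, the collagen chaperone, had a mean of 101.7 FPKM over all hearts. Between WT_B and WT_A, 3 of the 26 were higher and 3 lower at that level, against 22.5% of all genes, and between WT_F and WT_A 1 was higher and 1 lower, against 3.85%. The median log2 fold change of the list was -0.03, -0.13 and -0.07 for WT_B minus WT_F, WT_B minus WT_A and WT_F minus WT_A.

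Of 10 collagen receptor genes, 6 were tested and none was called. At an unadjusted p under 0.05, 3 were higher and 1 lower in WT_B than in WT_F, against 25.8% of all genes in either direction. Itga1, an integrin chain that binds collagen, averaged 2.39 ± 0.433 FPKM in WT_B and 1.49 ± 0.220 FPKM in WT_F (log2 fold change 0.44, limma adjusted p = 0.0525). Mouse 28, the WT_F heart of high mitochondrial share, read 1.88 FPKM, within the WT_B range of 1.73 to 2.94 FPKM. The other WT_F hearts read 1.34 to 1.44 FPKM. Ddr1 and Ddr2, the discoidin domain receptors, had opposite signs in WT_B minus WT_A, at -0.56 and 0.33 (adjusted p = 0.130 and 0.174). Mouse 22 of WT_A, also of high mitochondrial share, read 7.004 FPKM of Ddr1 and 1.860 FPKM of Ddr2. Both lay within the WT_B ranges, 5.11 to 7.32 and 1.857 to 2.20 FPKM. The other WT_A hearts read 9.27 to 14.1 and 0.898 to 1.69 FPKM. Of 16 laminin, nidogen and proteoglycan genes that share the basement membrane with type IV collagen, 13 were tested and none was called. At an unadjusted p under 0.05, 1 of them was higher and 1 lower in WT_B than in WT_F. The higher was Nid1, which links laminin to type IV collagen. It averaged 16.2 ± 2.65 FPKM in WT_B and 12.7 ± 0.705 FPKM in WT_F (log2 fold change 0.31, adjusted p = 0.107). The lower was Lamb3, a laminin gene (log2 fold change -0.26, limma adjusted p = 0.125).

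No marker of the cells that make collagen was called. None of the 8 fibroblast markers reached an unadjusted p under 0.05, and their median log2 fold change in WT_B minus WT_F was -0.10. Their summed FPKM was 416 to 549 in WT_B, 393 to 583 in WT_F and 447 to 540 in WT_A. Most of each sum came from 1 marker, Gsn, at 276 to 463 FPKM. Of 8 endothelial markers, 2 were higher in WT_B than in WT_F at an unadjusted p under 0.05, against 25.8% of all genes, and none was called, with a median of 0.19 and summed FPKM of 129 to 192 in WT_B and 113 to 178 in WT_F. Of 6 pericyte markers 1 was higher in WT_B at that level (median 0.03), with sums of 144 to 173 FPKM in WT_B, 117 to 147 FPKM in WT_F and 56.3 to 146 FPKM in WT_A. The sum of 56.3 FPKM was that of mouse 24, and every other heart held 117 FPKM or more. The smooth muscle sum was 93.8 to 236 FPKM in WT_B and 65.7 to 142 FPKM in WT_F (median log2 fold change 0.32 over 4 tested markers). The 5 macrophage markers all had positive values in WT_B minus WT_F (median 0.24). Of these, 2 reached that level and 1 was higher without overlap, against 1.62% of all genes without overlap. Their sums were 40.2 to 60.4 FPKM in WT_B, 37.1 to 57.6 FPKM in WT_F and 36.96 to 61.5 FPKM in WT_A. The 5 blood markers had a median of -0.76 in WT_B minus WT_A, with 3 lower at that level, against 22.5% of all genes in either direction there. They summed to 779 to 991 FPKM in WT_B, 649.7 to 1962 FPKM in WT_F and 873 to 2717 FPKM in WT_A, where the highest sum was that of mouse 24. The part of any of these lists in the collagen differences was not tested.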

How the data were processed

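Heart RNA of 14 WT mice was analysed, with 1 library per mouse, in the groups WT_B, WT_F and WT_A that the labels give. The authors selected mRNA on poly-T beads, counted fragments per gene with featureCounts and deposited FPKM values. The submitters' processing notes name DESeq2 and the build GRCm39. The labels do not say whether libraries keep the strand, so genes that overlap on opposite strands, such as Col4a1 and Col4a2 at their 5′ ends, may share fragments. Genes were named by Ensembl identifier with GENCODE M21 (52073 of 56748), an annotation of GRCm38. It also gave the merged exon lengths, and no coordinates were taken from it. Promoter windows came from RefSeq on GRCm38.p6.

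Depth was recovered from the steps of low FPKM values. A tolerance of 0.02 fragments counted 90.2% to 92.0% of each library's values of 1 to 30 fragments as whole, and chance alone would give 4.0%. Named genes held 73.7% to 99.5% of this depth, with the higher shares in libraries rich in mitochondrial transcripts.

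log2(FPKM + 1) was tested with limma 3.58.1 in R 4.3.3 (trend on, two-sided) for genes that reached 0.5 FPKM in 4 or more of the libraries compared. Each pair of groups was fitted alone, and p-values were Benjamini-Hochberg adjusted over all genes tested with a threshold of 0.05. The fit was tested on simulated data. Since nothing in the labels says how mice were batched, the p-values measure the spread between these mice alone.

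Values per library were given for members with a mean of at least 1 FPKM or called in a comparison, and ranges and counts for others. Members named beside these were chosen after their values were seen. The members, classes and related lists were chosen with earlier results of these data known. Alternatives were pseudocounts of 0.1 and 5, no filter, a filter of 2 FPKM, 3 other scalings, all 14 libraries in 1 fit, array weights, a mitochondrial covariate and libraries left out. Chosen after seeing the data were voom on recovered fragments and median-of-ratios scaling without mouse 24. Figures were drawn with matplotlib 3.10.9, and tables were computed in pandas 2.3.3 and numpy 2.4.6 under Python 3.11.15.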

Additional observations from a re-analysis of the deposited data

Results flagged for a closer look

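In 57 groups of values (19 collagen genes in 3 WT groups), 1 heart stood far from the others of its group in 7, where chance gives about 5%. That rate is for a group taken alone. The groups share libraries, and genes such as Col6a1 and Col6a2 varied together, so the 7 cases are not independent. Mouse 28 of WT_F, whose mitochondrial share was 49.99%, was the low heart in 4 of them. It had 9.28 FPKM of Col1a1, against 12.3 to 12.97 FPKM in the other WT_F hearts, 11.9 FPKM of Col6a1, against 16.2 to 17.1 FPKM, 7.05 FPKM of Col6a2, against 9.37 to 10.1 FPKM, and 9.33 FPKM of Col15a1, against 13.8 to 15.4 FPKM. Mouse 8 of WT_B had 14.2 FPKM of Col6a1, against 17.9 to 18.4 FPKM in the other WT_B hearts, and 8.36 FPKM of Col6a2, against 10.4 to 11.1 FPKM. Mouse 24 of WT_A, the heart with atrial transcripts, had 3.79 FPKM of Col18a1, against 2.005 to 2.14 FPKM in the other WT_A hearts.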

How the results depend on the processing

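No paired analysis was possible because the groups share no mouse number. Of 1277 values of single collagen genes under alternative settings, 1234 kept their side of the threshold (1140 with the same sign and 94, of members that were not called, with the other), 25 lost a call (Col3a1 and Col14a1 in WT_B minus WT_F), 18 gained one and 0 reversed a call. Members called in WT_B minus WT_F numbered 2, against 0 with no filter on low values, 0 with all 14 libraries in 1 fit, 0 with the mitochondrial covariate and 6 with array weights. Mice 22 and 24 are not in this comparison. The settings without mice 22 and 28 and without mice 22, 24 and 28 are therefore the same fit here as without mouse 28. With 1 heart left out they numbered 0 to 4, where 4 was the value without mouse 28. Members called in WT_B minus WT_A numbered 0, against 1, always Col5a3, with scaling to nuclear genes, with all libraries in 1 fit, with array weights and without mice 22, 24 and 28. With 1 heart left out they numbered 0 to 1 (1 without mouse 22). Mouse 28 is not in this comparison, so the setting without mice 22 and 28 repeats the fit without mouse 22. All totals over alternatives, here and below, count such repeated fits each time.

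The class median log2 fold change moved beyond its spread in 8 of 213 cases. In WT_F minus WT_A the fibrillar median of -0.18 became -0.0428 with no filter and -0.0207 without mice 22, 24 and 28, when the type IV median of -0.22 became -0.353. In WT_B minus WT_A the median of the other types, 0.17 with Col6a6, became 0.0104 with no filter and 0.40 with the mitochondrial covariate, and the fibrillar 0.14 became 0.28 with nuclear scaling. In WT_B minus WT_F the fibrillar 0.33 became 0.21 with a pseudocount of 5 and 0.17 with no filter. No filter adds genes of low level to each class. Without mice 22, 24 and 28, Col4a4 no longer reached the filter in WT_F minus WT_A, so 3 type IV members were tested in place of 4. What moved the medians beyond these changes of members was not tested. Signs of members that were not called changed in 22 of 411 cases for WT_F minus WT_A (7 members), 56 of 433 for WT_B minus WT_A (10 members) and 16 of 433 for WT_B minus WT_F (4 members).

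Over all genes, calls in WT_B minus WT_F numbered 208, against 20 with no filter, 35 with all libraries in 1 fit, 11 with the covariate, 4233 with array weights, 512 with voom and, with 1 heart left out, 17 to 2645. In WT_B minus WT_A they numbered 41, against 0 with no filter, 26 with a filter of 2 FPKM, 101 with nuclear scaling, 401 with all libraries in 1 fit, 2 with the covariate, 4811 with array weights, 4206 without mice 22, 24 and 28, 12 with voom, 19 with median-of-ratios scaling without mouse 24 and, with 1 heart left out, 0 to 2392. In WT_F minus WT_A they numbered 3 and ranged from 0 to 9. Nuclear scaling turned the split in WT_B minus WT_F from 86 higher and 122 lower to 128 higher and 60 lower. Voom and the median-of-ratios scaling without mouse 24 were chosen after seeing the data.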
